A study of Mus musculus with 18 samples.

Results

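The cell cycle module described here is a list of 44 genes that drive or mark cell division. The genes were found by symbol in the deposited comparison tables and matched by Ensembl identifier to the library files. All 44 are in the library files, out of 38887 genes measured. They were measured in bone marrow-derived macrophages (BMMs) of female C57BL/6J mice, 10 to 23 weeks old, cultured for 6 days with 50 ng/ml M-CSF. According to the study's methods, all animals carried Cre recombinase at the myeloid gene Lyz2. WT BMMs are described as coming from mice with Lyz2-Cre alone. GILZ KO BMMs came from mice whose Gilz (Tsc22d3) exon 6 lies between loxP sites and is removed in cells with Lyz2-driven Cre. GILZ TG BMMs came from mice with a Gilz-1 cDNA at the ROSA26 locus behind a stop cassette that the same Cre removes. BMMs of each genotype were left untreated or received 100 ng/ml LPS for 4 h, with 3 libraries in each of the 6 groups. GILZ is a protein induced by glucocorticoids, and LPS is a component of the outer membrane of bacteria that activates macrophages.

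A cell that divides passes from the G1 phase through DNA synthesis (S phase) and a second gap (G2) into mitosis (M phase). D-type cyclins with CDK4 or CDK6, and E-type cyclins with CDK2, phosphorylate the retinoblastoma protein, which frees E2F factors to switch on the genes of DNA replication. Cyclins A and B with CDK1, together with the Aurora and Polo-like kinases, then drive mitosis, and many genes of that phase carry CHR and CCAAT elements in their promoters. BMMs divide in culture because M-CSF induces D-type cyclins and Myc through its receptor. LPS is known to stop macrophages from dividing in the presence of M-CSF.

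Promoters are shown for the 2 members of each role with the largest mean change after LPS among the 35 members that have an entry in RefSeq (build GRCm38.p6), so that the letters can be read beside the changes given further on. Each line gives the 150 bases that end just before the first listed transcription start, 5′ to 3′ on the strand of the gene. Capitals mark matches on either strand to an E2F motif (spelled TTCCCGC, or with another core as TTGGCGC, or likewise as TTCGCGC, or finally as TTGCCGC), a CHR motif (TTTGAA, or its variant TTCGAA), the box CCAAT or an E-box (CACGTG).
Cdkn1a (chr17:29090829-29090978, plus strand): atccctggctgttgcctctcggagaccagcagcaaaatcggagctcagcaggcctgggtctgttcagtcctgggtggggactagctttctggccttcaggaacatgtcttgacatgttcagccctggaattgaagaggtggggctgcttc
Cdkn2c (chr4:109666757-109666906, minus strand): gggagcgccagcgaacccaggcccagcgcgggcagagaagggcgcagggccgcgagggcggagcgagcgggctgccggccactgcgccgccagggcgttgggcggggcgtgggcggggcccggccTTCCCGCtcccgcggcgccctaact
E2f2 (chr4:136172124-136172273, plus strand): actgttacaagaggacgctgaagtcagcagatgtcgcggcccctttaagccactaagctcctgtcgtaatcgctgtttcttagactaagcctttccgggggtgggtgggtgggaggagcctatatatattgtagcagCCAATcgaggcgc
E2f8 (chr7:48881597-48881746, minus strand): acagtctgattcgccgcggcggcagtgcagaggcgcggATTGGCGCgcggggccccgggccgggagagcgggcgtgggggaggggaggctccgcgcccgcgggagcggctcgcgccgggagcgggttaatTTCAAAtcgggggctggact
Cdc6 (chr11:98908001-98908150, plus strand): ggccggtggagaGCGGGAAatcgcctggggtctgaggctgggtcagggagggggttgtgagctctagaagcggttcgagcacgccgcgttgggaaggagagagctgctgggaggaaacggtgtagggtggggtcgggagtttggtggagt
Rrm2 (chr12:24708104-24708253, plus strand): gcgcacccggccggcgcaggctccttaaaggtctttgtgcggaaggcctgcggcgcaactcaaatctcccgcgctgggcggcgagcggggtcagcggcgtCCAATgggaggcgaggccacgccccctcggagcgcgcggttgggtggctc
Aurka (chr2:172370571-172370720, minus strand): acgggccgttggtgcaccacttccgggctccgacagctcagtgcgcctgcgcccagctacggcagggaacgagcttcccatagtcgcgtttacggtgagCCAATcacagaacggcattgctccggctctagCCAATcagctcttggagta
Plk1 (chr7:122159285-122159434, plus strand): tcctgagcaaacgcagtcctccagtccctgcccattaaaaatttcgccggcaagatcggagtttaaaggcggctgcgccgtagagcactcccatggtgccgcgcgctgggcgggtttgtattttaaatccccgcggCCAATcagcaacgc
Bub1b (chr2:118598061-118598210, plus strand): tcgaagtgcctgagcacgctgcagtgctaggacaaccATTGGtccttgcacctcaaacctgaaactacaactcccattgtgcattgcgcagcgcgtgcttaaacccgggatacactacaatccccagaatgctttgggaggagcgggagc
Cenpf (chr1:189688087-189688236, minus strand): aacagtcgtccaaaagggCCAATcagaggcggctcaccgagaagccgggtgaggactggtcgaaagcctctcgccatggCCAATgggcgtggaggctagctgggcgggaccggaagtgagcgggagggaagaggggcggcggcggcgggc
The E2F and CCAAT matches of E2f8 overlap. Cdkn1a, which rose after LPS, had no match in these 150 bases. Only the first listed start of each gene was searched, so a match near another start would be missed. Aurka and Cenpf, a mitotic kinase and a kinetochore protein, had 2 CCAAT matches each. Over the full windows from 250 bases before to 50 bases after the start, an E2F motif was found in 14 of the 35 members (40.0%) and in 9.69% of the 27025 genes with a promoter. CCAAT was in 25 of the members (71.4%) and in 37.9% of all genes. The CHR motif was in 14 of the members (40.0%) and in 19.4% of all genes, and the E-box was in 3 (8.57%) and in 7.24%. E2F matches were in 7 of the 10 replication genes and 1 of the 9 mitotic apparatus genes with an entry. CHR matches were in 2 of those 10 and 7 of those 9. A match is a run of letters and does not show that a factor binds there.

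The libraries held between 14583055 and 38557029 reads on genes. Levels are given in TPM, which is scaled by transcript length and by the library total, so that levels of different genes can be set side by side. Changes are log2 fold changes from edgeR's quasi-likelihood test on TMM-scaled expected counts, adjusted over all genes tested by the Benjamini-Hochberg method. A gene was called with an adjusted p under 0.05. The standard errors given with edgeR changes were derived from the test, as the absolute log2 fold change divided by the square root of its F statistic. The choice of scaling matters for the response to LPS. The median log2 fold change of all 13169 genes tested was -0.02 in each genotype with TMM, and between -0.70 and -0.66 when counts were scaled by library totals, the scale on which TPM stands. TPM values therefore show larger falls than the log2 fold changes beside them. Tsc22d3 was at 14.9 to 18.8 TPM in untreated WT BMMs, 1.89 to 2.81 TPM in GILZ KO and 152.0 to 159.8 TPM in GILZ TG, in the direction of the labels. After LPS it was at 4.56 to 5.81 TPM in WT, 2.50 to 3.28 TPM in GILZ KO and 127.2 to 140.6 TPM in GILZ TG. Between GILZ KO and WT after LPS, Tsc22d3 differed by -0.69 on the log2 scale and was not called (standard error 0.14, edgeR adjusted p = 0.15). Lyz2, the gene that carries Cre, was at 11048 to 15401 TPM in untreated WT and at 17.2 to 53.1 TPM in GILZ KO and GILZ TG. The methods give Lyz2-Cre to all 3 genotypes, yet GILZ KO and GILZ TG differed from WT in Lyz2 by -8.63 and -8.61 on the log2 scale without treatment (edgeR adjusted p of 2.16e-05 for both). A difference from WT given further on therefore cannot be told apart from one that goes with Cre or Lyz2 status. A list of 8 macrophage markers summed to 3971 to 5046 TPM over the 18 libraries, and Csf1r, the M-CSF receptor, was at 441.8 to 822.7 TPM. The 6 erythroid markers summed to at most 0.70 TPM, and the 6 haematopoietic progenitor markers to at most 7.87 TPM. GILZ TG replicates 1 and 2 stood apart in markers of other cells. Their 10 stromal fibroblast markers summed to 112.0 and 129.0 TPM without treatment, against 10.9 TPM in GILZ TG replicate 3 and at most 24.3 TPM in untreated WT and GILZ KO. The 8 neutrophil and 6 B cell markers in these 2 libraries summed to 51.0 and 129.3 TPM and to 49.6 and 106.7 TPM. Counts of called members that rest on these libraries are also given without both replicates, in fits that take the lone GILZ TG library of a treatment to vary like the other groups.

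LPS lowered most of the 44 genes in all 3 genotypes. In TPM, all 3 LPS libraries lay below all 3 untreated libraries for 40 members in WT, 41 in GILZ KO and 40 in GILZ TG, where the same was true of 64.8%, 67.3% and 65.2% of all genes tested. With TMM scaling, 34 members fell in WT (77.3% of 44, against 35.1% of all genes), 35 in GILZ KO (79.5%, against 35.4%) and 34 in GILZ TG (77.3%, against 35.1%). Scaled by library totals, 40 members fell in each genotype (90.9%), where 68.3%, 67.2% and 68.3% of all genes did. With TMM, 4 members rose in WT, 2 in GILZ KO and 4 in GILZ TG, against 33.5%, 33.2% and 33.6% of all genes, and with library totals 2 rose in each, against 15.9%, 15.5% and 15.5%. The median log2 fold change of the 44 members was -0.89 in WT, -1.0 in GILZ KO and -0.88 in GILZ TG with TMM, and -1.56, -1.64 and -1.55 with library totals. Without GILZ TG replicates 1 and 2, 27 members fell and 4 rose in GILZ TG with TMM, where fewer libraries entered the fit. The 7 that were no longer called (Ccnd3, Ccne1, Cdkn1b, Cdk1, Plk1, Mki67 and Top2a) had log2 fold changes below 0. The share of all genes called without GILZ TG replicates 1 and 2 was not taken. The smaller count of falls therefore cannot be read as particular to the members. Under both scalings, 33 members fell and 2 rose (Ccnd2 and Cdkn1a) in every genotype. No share of all genes was taken for these joint counts. It cannot exceed 35.1% for falls and 15.5% for rises, the lowest shares for a single genotype and scaling. In RNA from whole cultures, fewer dividing cells and less RNA per dividing cell cannot be told apart. All 44 members passed the filter on low counts, and the lowest count of a member in a library was 14.

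**Figure D1:**
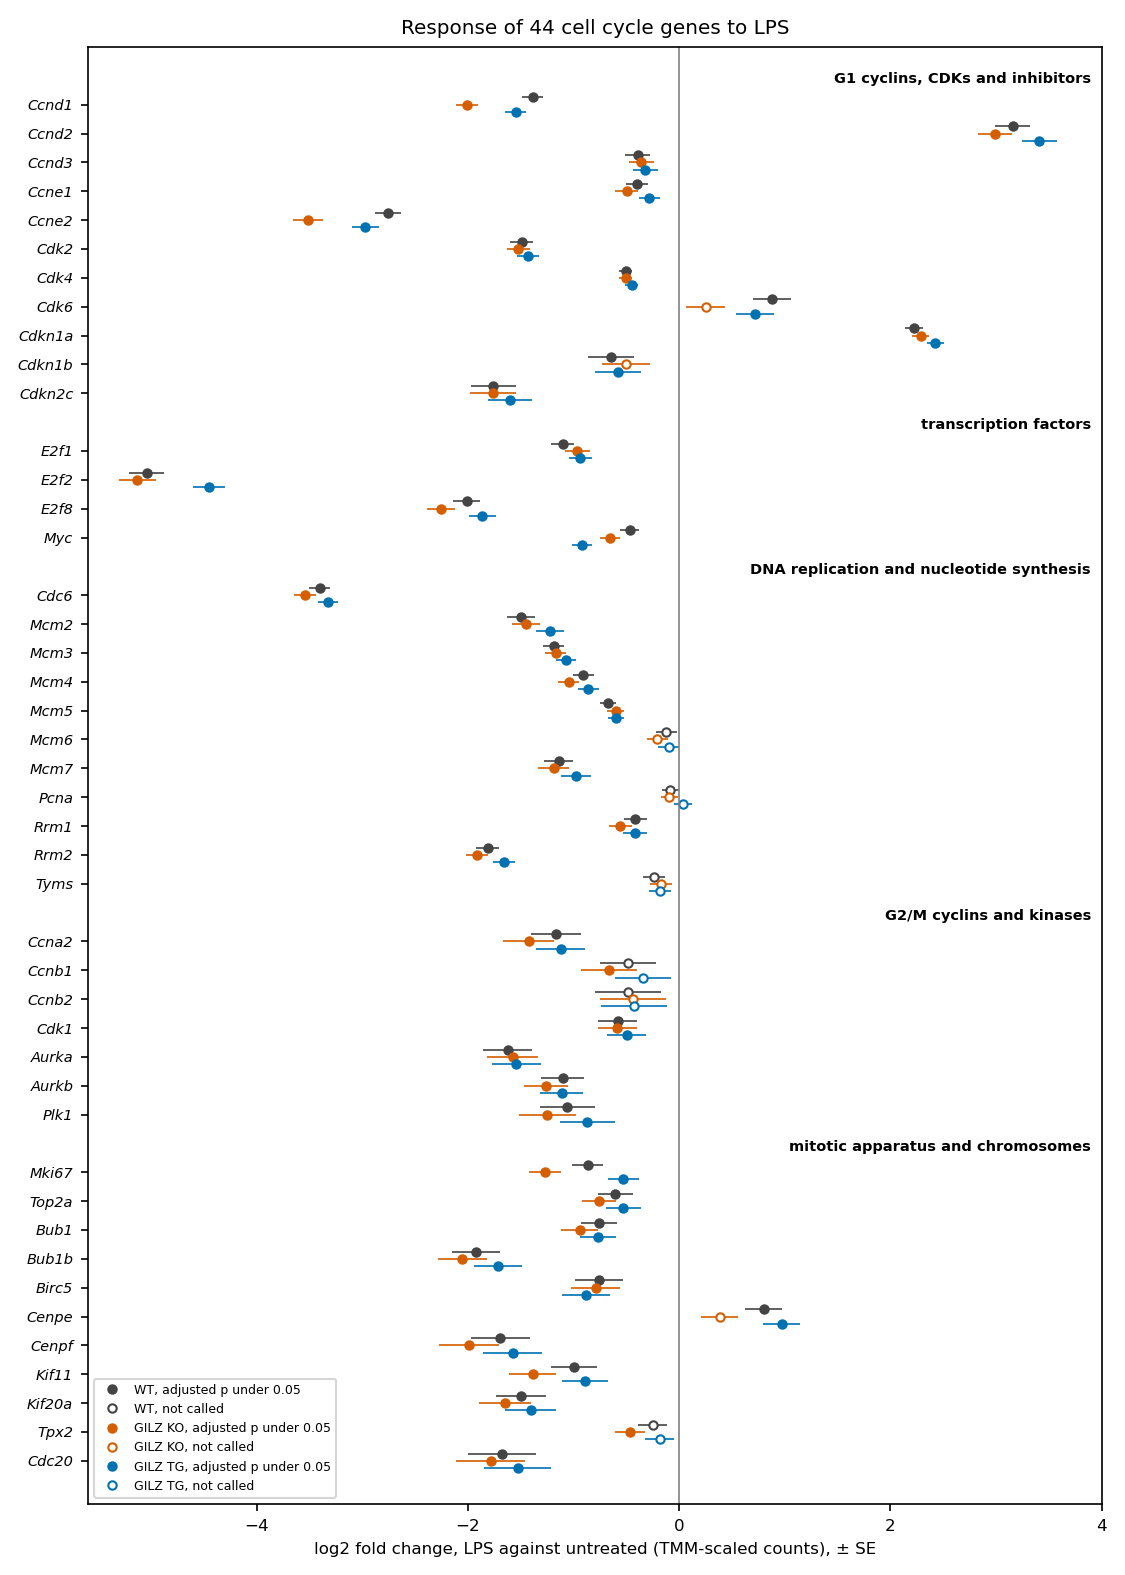
Log2 fold change after LPS (x axis, TMM-scaled counts, bars are the standard error derived from edgeR's test) of the 44 genes, ordered by role (y axis), in WT, GILZ KO and GILZ TG, with 3 LPS and 3 untreated libraries each. Filled points were called at an adjusted p under 0.05 by edgeR; E2f2, Cdc6 and Ccne2 stand farthest to the left, and Ccnd2 and Cdkn1a lie above 2 in all 3 genotypes.

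The G1 cyclins did not move together. Gene positions are those of the GRCm38 annotation. Ccnd1 (ENSMUSG00000070348, chr7:144929931-144939925), the D-type cyclin that M-CSF induces, had the highest level of the cyclins in untreated cells. WT BMMs had 542.8, 517.5 and 492.2 TPM of Ccnd1 without treatment and 152.6, 124.0 and 113.0 TPM after LPS. GILZ KO BMMs had 530.2, 540.3 and 540.4 TPM and 83.6, 87.0 and 83.3 TPM, and GILZ TG BMMs 517.2, 510.3 and 494.3 TPM and 116.5, 128.5 and 95.2 TPM. All LPS libraries lay below all untreated ones. The change on the log2 scale was -1.39 ± 0.10 in WT, -2.01 ± 0.10 in GILZ KO and -1.55 ± 0.10 in GILZ TG (standard errors), with edgeR adjusted p of at most 1.44e-09. Ccnd2 (ENSMUSG00000000184, chr6:127125162-127152193) went the other way. Without treatment, Ccnd2 was at 15.4, 12.2 and 13.0 TPM in WT, 14.7, 15.9 and 16.1 TPM in GILZ KO and 15.8, 14.7 and 15.1 TPM in GILZ TG. With LPS it was at 84.3, 73.9 and 75.6 TPM, 74.6, 88.9 and 74.7 TPM and 83.9, 89.9 and 136.4 TPM in the same order. All LPS libraries lay above all untreated ones, and in GILZ TG replicate 3 the level after LPS was above that of Ccnd1 in the same library. Ccnd2 changed by 3.16 ± 0.16 in WT, 2.99 ± 0.16 in GILZ KO and 3.41 ± 0.17 in GILZ TG on the log2 scale, with edgeR adjusted p of at most 3.73e-11. Ccnd3, the third D-type cyclin, fell less, with -0.39 ± 0.12 in WT, -0.36 ± 0.12 in GILZ KO and -0.32 ± 0.12 in GILZ TG (edgeR adjusted p of at most 0.0233).

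Of the E-type cyclins, which act with CDK2 at the entry into S phase, Ccne2 fell far more than Ccne1. Ccne2 (ENSMUSG00000028212, chr4:11191351-11204779) was among the 3 members with the largest falls in every genotype. In WT, Ccne2 was at 80.7, 79.1 and 59.1 TPM without treatment and 6.43, 6.26 and 7.19 TPM after LPS. In GILZ KO the values were 77.4, 64.8 and 65.9 TPM and 4.06, 3.72 and 3.60 TPM, and in GILZ TG 61.0, 69.0 and 58.5 TPM and 5.43, 7.69 and 4.44 TPM. The groups did not overlap, and the 3 GILZ KO libraries after LPS lay below the 3 of WT and the 3 of GILZ TG. The log2 fold change was -2.76 ± 0.13 in WT, -3.51 ± 0.14 in GILZ KO and -2.97 ± 0.13 in GILZ TG (edgeR adjusted p of at most 3.04e-12). Ccne1 changed by -0.40 ± 0.10 in WT, -0.50 ± 0.11 in GILZ KO and -0.28 ± 0.10 in GILZ TG (edgeR adjusted p of at most 0.0216). Cdk2, their kinase partner, fell by more than Ccne1, with -1.49 ± 0.10 in WT, -1.52 ± 0.11 in GILZ KO and -1.44 ± 0.10 in GILZ TG. Cdk4, the partner of the D-type cyclins, fell by less, with -0.51 ± 0.06 in WT, -0.51 ± 0.06 in GILZ KO and -0.45 ± 0.06 in GILZ TG. Cdk6, the other partner, was called higher in WT and GILZ TG with TMM, at 0.88 ± 0.18 (edgeR adjusted p = 0.000356) and 0.72 ± 0.18 (adjusted p = 0.00201). In GILZ KO it was at 0.25 ± 0.18 (adjusted p = 0.236). With library totals none of the 3 was called, and the values were 0.19, -0.39 and 0.04 in WT, GILZ KO and GILZ TG, a change of sign in GILZ KO. The TPM of Cdk6 overlapped between untreated and LPS libraries in WT and GILZ TG.

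Cdkn1a (ENSMUSG00000023067, chr17:29090976-29100727), the inhibitor p21 that binds cyclin-CDK complexes, was the member with the highest level after LPS. WT BMMs had 449.2, 454.2 and 454.0 TPM of Cdkn1a without treatment and 1356, 1365 and 1336 TPM after LPS. GILZ KO BMMs had 446.5, 479.6 and 470.4 TPM and 1387, 1499 and 1507 TPM, and GILZ TG BMMs 415.5, 450.4 and 486.1 TPM and 1639, 1412 and 1502 TPM. All LPS libraries lay above all untreated ones in each genotype. The change on the log2 scale was 2.22 ± 0.08 in WT, 2.28 ± 0.08 in GILZ KO and 2.43 ± 0.08 in GILZ TG (edgeR adjusted p of at most 1.61e-13). The other inhibitors among the members went the other way. Cdkn2c, the inhibitor p18 of CDK4 and CDK6, changed by -1.76 ± 0.21 in WT, -1.76 ± 0.22 in GILZ KO and -1.60 ± 0.21 in GILZ TG (edgeR adjusted p of at most 2.79e-06). Cdkn1b, the inhibitor p27, was at -0.65 ± 0.22 in WT, -0.51 ± 0.23 in GILZ KO and -0.58 ± 0.22 in GILZ TG, with edgeR adjusted p of 0.0151, 0.0566 and 0.0258, so that it was called in WT and GILZ TG. All 11 genes of the G1 group were at 1661 to 1781 summed TPM without treatment and at 1847 to 2162 summed TPM after LPS. Cdkn1a alone made up 1336 to 1639 TPM of the latter.

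**Figure D2:**
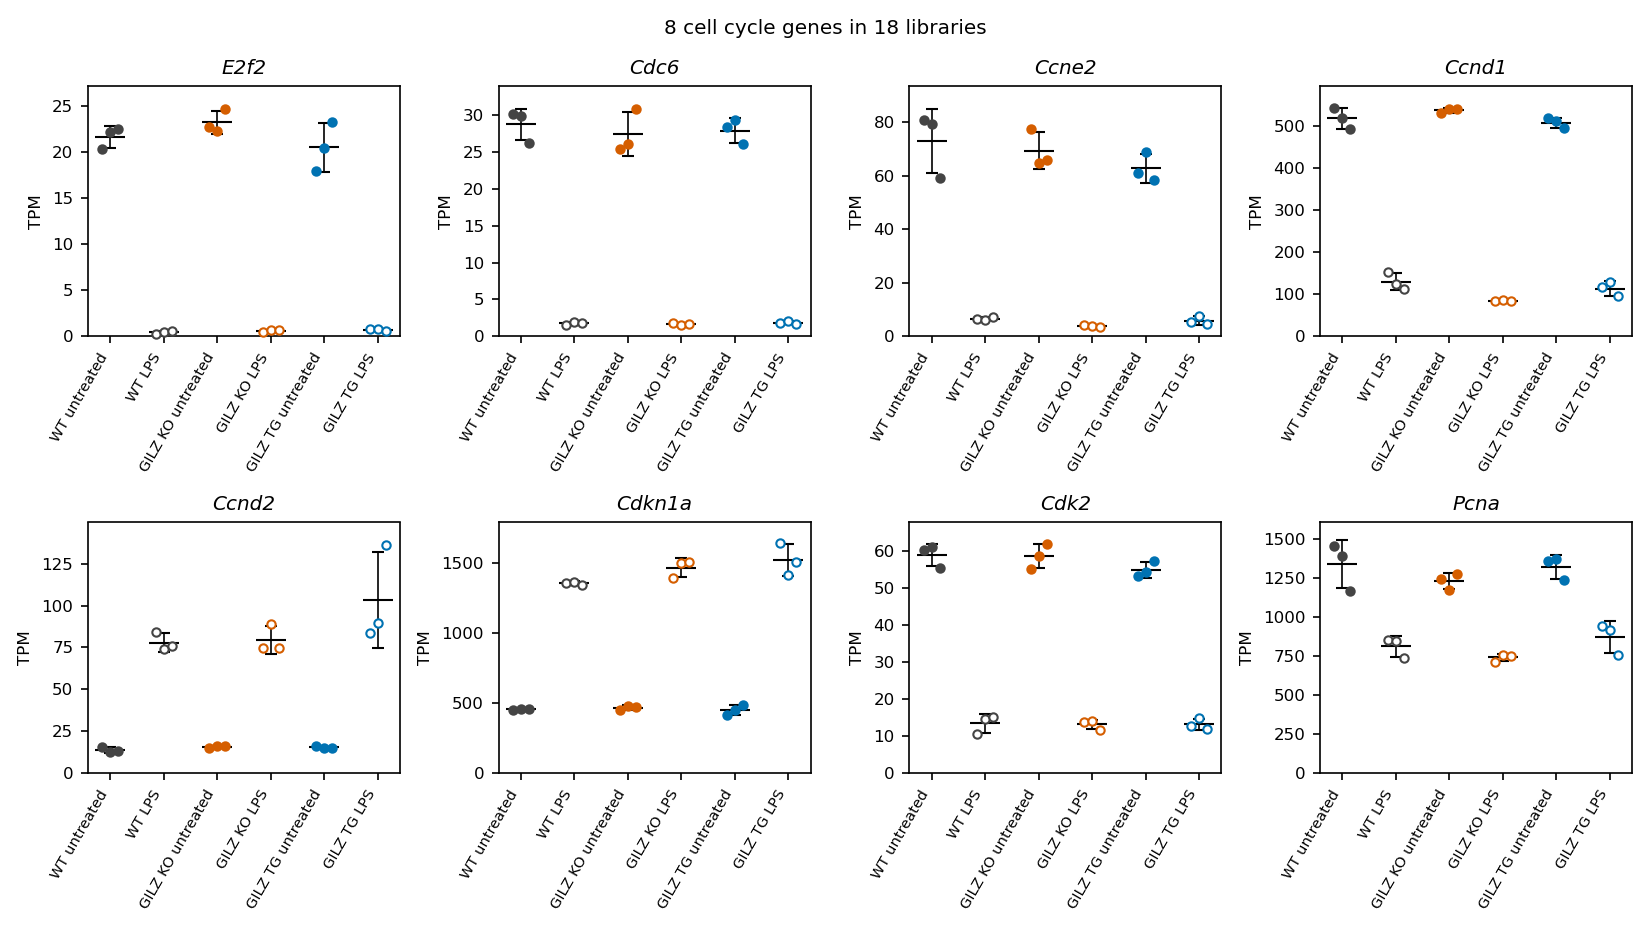
TPM (y axis, from 0) of 8 members in each of the 18 libraries, by group (x axis); filled points are untreated and open points LPS libraries, and the bar and whiskers are the mean ± SD of 3 libraries. E2f2, Cdc6 and Ccne2 lie near the bottom after LPS in all genotypes, Ccnd2 and Cdkn1a lie higher, and Pcna stays above 712 TPM.

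The transcription factors all fell. E2f2 (ENSMUSG00000018983, chr4:136172394-136196057), an activating E2F, had the largest fall of all members. Without treatment, E2f2 was at 20.3, 22.2 and 22.5 TPM in WT, 22.7, 22.3 and 24.6 TPM in GILZ KO and 17.9, 20.4 and 23.2 TPM in GILZ TG. With LPS it was at 0.29, 0.44 and 0.61 TPM, 0.51, 0.69 and 0.67 TPM and 0.75, 0.76 and 0.53 TPM in the same order. After LPS these levels rested on 14 to 62 counts in each library, against 1008 to 1683 counts without treatment. E2f2 changed by -5.04 ± 0.16 in WT, -5.13 ± 0.18 in GILZ KO and -4.45 ± 0.15 in GILZ TG on the log2 scale (edgeR adjusted p of at most 6.42e-14). E2f8 (ENSMUSG00000046179, chr7:48866429-48881596), an atypical E2F that represses transcription, was at 37.0 to 49.9 TPM without treatment and 5.15 to 8.15 TPM after LPS, with -2.01 ± 0.13 in WT, -2.26 ± 0.13 in GILZ KO and -1.86 ± 0.12 in GILZ TG (edgeR adjusted p of at most 4.7e-10). E2f1 fell by less than either, with -1.10 ± 0.11 in WT, -0.96 ± 0.11 in GILZ KO and -0.94 ± 0.11 in GILZ TG (edgeR adjusted p of at most 9.64e-07). Myc (ENSMUSG00000022346, chr15:61985391-61990374), a factor for growth and proliferation, had a smaller change. In WT, Myc was at 73.1, 75.4 and 69.8 TPM without treatment and 34.0, 31.5 and 33.4 TPM after LPS. In GILZ KO the values were 72.2, 83.8 and 76.3 TPM and 34.1, 25.9 and 35.1 TPM, and in GILZ TG 84.5, 84.7 and 69.6 TPM and 26.4, 28.0 and 24.5 TPM. The 3 GILZ TG libraries after LPS lay below the 3 of WT, while those of GILZ KO spread over both. The log2 fold change was -0.47 ± 0.09 in WT, -0.66 ± 0.09 in GILZ KO and -0.92 ± 0.09 in GILZ TG (edgeR adjusted p of at most 0.000228).

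The replication genes fell to different extents. Cdc6 (ENSMUSG00000017499, chr11:98907801-98923940), which loads the MCM helicase on origins, fell most. WT BMMs had 30.1, 29.9 and 26.3 TPM of Cdc6 without treatment and 1.54, 1.88 and 1.84 TPM after LPS. GILZ KO BMMs had 25.5, 26.1 and 30.9 TPM and 1.80, 1.54 and 1.65 TPM, and GILZ TG BMMs 28.4, 29.3 and 26.1 TPM and 1.77, 2.07 and 1.65 TPM. Every LPS library lay below every untreated one. The change on the log2 scale was -3.40 ± 0.10 in WT, -3.55 ± 0.11 in GILZ KO and -3.33 ± 0.10 in GILZ TG (edgeR adjusted p of at most 1.16e-14). Rrm2 (ENSMUSG00000020649, chr12:24708241-24714146), the regulated subunit of ribonucleotide reductase, was at 196.7 to 245.1 TPM without treatment and 33.1 to 52.5 TPM after LPS, with -1.82 ± 0.11 in WT, -1.91 ± 0.11 in GILZ KO and -1.66 ± 0.10 in GILZ TG (edgeR adjusted p of at most 2.23e-10). Rrm1, the large subunit, changed by -0.42 ± 0.11 in WT, -0.56 ± 0.11 in GILZ KO and -0.42 ± 0.11 in GILZ TG.

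The 6 subunits of the MCM helicase, which unwinds DNA at the fork, did not fall to the same extent. Mcm2 changed by -1.49 ± 0.13 in WT, -1.45 ± 0.14 in GILZ KO and -1.22 ± 0.13 in GILZ TG, and Mcm3 by -1.19 ± 0.10 in WT, -1.17 ± 0.10 in GILZ KO and -1.08 ± 0.10 in GILZ TG. Mcm7 changed by -1.14 ± 0.14 in WT, -1.19 ± 0.14 in GILZ KO and -0.98 ± 0.14 in GILZ TG and Mcm4 by -0.91 ± 0.10 in WT, -1.05 ± 0.10 in GILZ KO and -0.86 ± 0.10 in GILZ TG. Mcm5 fell by less, with -0.67 ± 0.08 in WT, -0.60 ± 0.08 in GILZ KO and -0.60 ± 0.08 in GILZ TG, and all of these were called in every genotype. Mcm6 was called in none with TMM, at -0.12 ± 0.10 in WT, -0.21 ± 0.10 in GILZ KO and -0.10 ± 0.10 in GILZ TG (edgeR adjusted p of 0.297, 0.0767 and 0.395), and in all 3 with library totals, at -0.80, -0.85 and -0.77. Pcna, the sliding clamp of the DNA polymerases, and Tyms, which makes thymidylate, were not called in any genotype either. Without treatment, Pcna was at 1456, 1389 and 1168 TPM in WT, 1244, 1173 and 1275 TPM in GILZ KO and 1354, 1372 and 1232 TPM in GILZ TG. With LPS it was at 849.8, 845.5 and 734.9 TPM, 712.3, 757.2 and 747.9 TPM and 941.8, 914.5 and 754.4 TPM in the same order. Pcna was thus the member with the highest level in untreated cells, and its LPS libraries lay below its untreated ones in TPM. With TMM its log2 fold change was -0.08 ± 0.08 in WT, -0.09 ± 0.08 in GILZ KO and 0.03 ± 0.08 in GILZ TG (edgeR adjusted p of 0.386, 0.332 and 0.731), and with library totals it was -0.76, -0.73 and -0.64, where it was called in all 3, so that the sign in GILZ TG depended on the scaling. Tyms was at -0.24 ± 0.10 in WT, -0.18 ± 0.10 in GILZ KO and -0.18 ± 0.10 in GILZ TG with TMM (edgeR adjusted p of 0.0509, 0.149 and 0.132) and at -0.91, -0.81 and -0.85 with library totals. The 11 replication genes summed to 2319 to 2837 TPM without treatment and to 1174 to 1484 TPM after LPS.

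**Figure D3:**
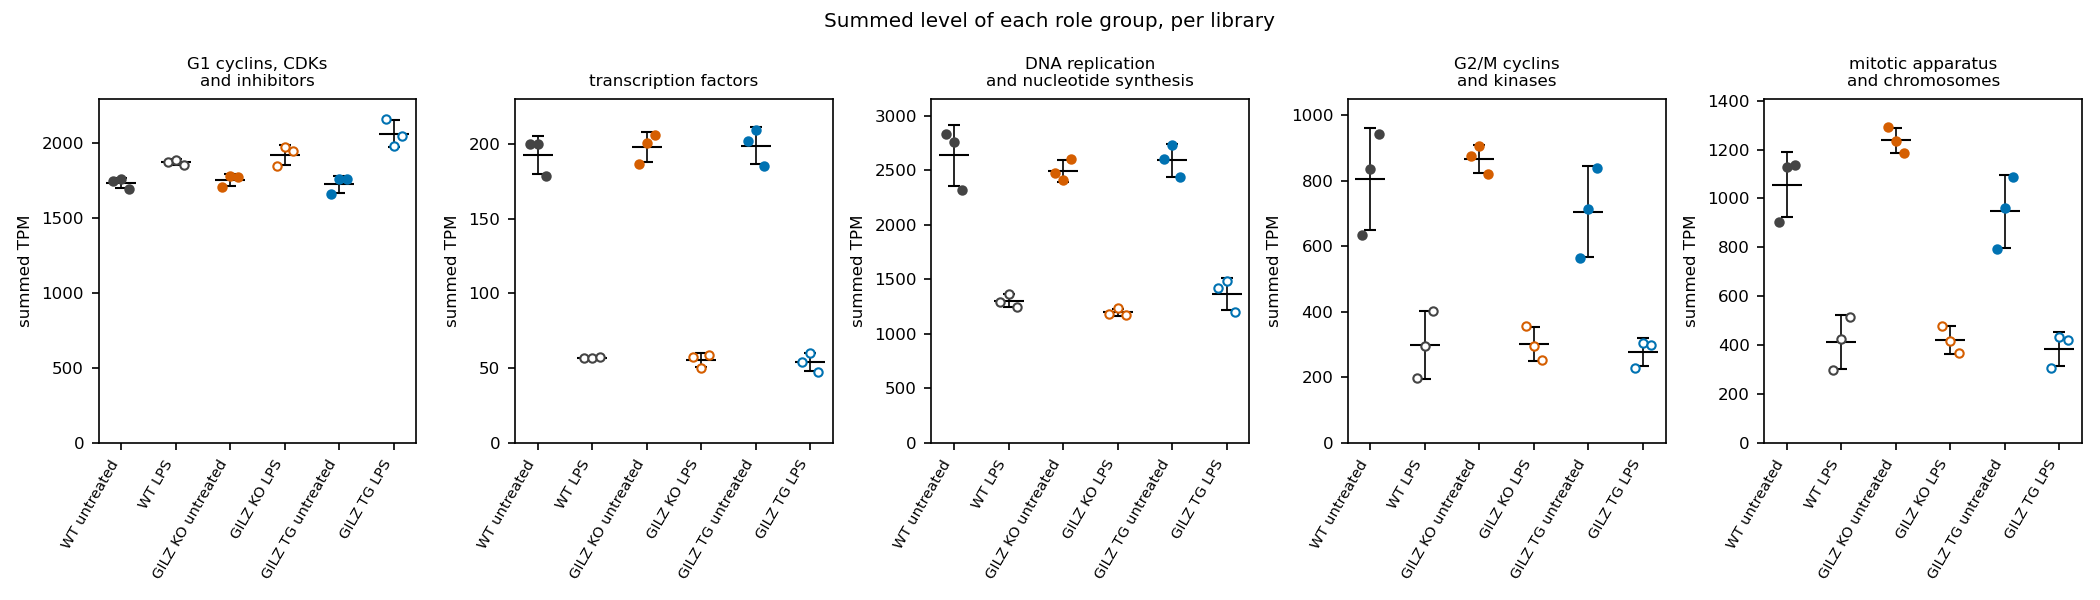
Summed TPM (y axis, from 0) of the members of each role in each library, by group (x axis); filled points are untreated and open points LPS libraries, with mean ± SD of 3. The transcription factors, replication, G2/M and mitotic groups are lower in every LPS library than in every untreated one, while the G1 group, of which Cdkn1a is the largest part, is higher.

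The G2/M cyclins and kinases fell with a larger spread between libraries than the replication genes. The median standard error was 0.24 for the 7 G2/M genes and 0.10 for the 11 replication genes in each genotype. Aurka (ENSMUSG00000027496, chr2:172356190-172370535), the Aurora kinase of the spindle poles, was at 53.2 to 82.9 TPM without treatment and 8.87 to 20.6 TPM after LPS, with -1.62 ± 0.23 in WT, -1.58 ± 0.24 in GILZ KO and -1.54 ± 0.23 in GILZ TG (edgeR adjusted p of at most 1.5e-05). Aurkb, the Aurora kinase of the chromosomal passenger complex, changed by -1.10 ± 0.20 in WT, -1.26 ± 0.21 in GILZ KO and -1.11 ± 0.20 in GILZ TG, and Plk1, the Polo-like kinase of mitotic entry, by -1.06 ± 0.26 in WT, -1.25 ± 0.27 in GILZ KO and -0.87 ± 0.26 in GILZ TG. Ccna2, the cyclin A of S phase and G2, changed by -1.17 ± 0.24 in WT, -1.43 ± 0.24 in GILZ KO and -1.12 ± 0.24 in GILZ TG, and Cdk1, the mitotic kinase, by -0.58 ± 0.18 in WT, -0.59 ± 0.18 in GILZ KO and -0.50 ± 0.18 in GILZ TG. All of these were called in every genotype. The B-type cyclins, the partners of CDK1 in mitosis, were called in GILZ KO (Ccnb1) or in no genotype (Ccnb2) with TMM. In WT, Ccnb1 was at 103.1, 147.8 and 148.5 TPM without treatment and 38.4, 59.2 and 87.6 TPM after LPS. In GILZ KO the values were 182.5, 180.5 and 159.2 TPM and 88.3, 69.7 and 60.1 TPM, and in GILZ TG 93.4, 117.8 and 135.0 TPM and 51.8, 62.6 and 62.4 TPM. The LPS libraries lay below the untreated ones in each genotype. With TMM, Ccnb1 was at -0.48 ± 0.26 in WT, -0.67 ± 0.27 in GILZ KO and -0.35 ± 0.26 in GILZ TG (edgeR adjusted p of 0.114, 0.0355 and 0.26), called in GILZ KO, and Ccnb2 was at -0.49 ± 0.31 in WT, -0.44 ± 0.31 in GILZ KO and -0.43 ± 0.31 in GILZ TG (adjusted p of 0.175, 0.223 and 0.239), called in none.

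The level of these genes also differed between libraries of a group. The 7 G2/M genes summed to 635.0, 836.4 and 942.3 TPM in untreated WT replicates 1, 2 and 3, and to 196.3, 293.9 and 402.6 TPM after LPS. WT replicate 1 was the lowest of its group in both treatments. In GILZ TG, replicate 1 was the lowest in both treatments, with 563.0 and 228.0 TPM. In GILZ KO, replicate 3 was the lowest in both, with 820.6 and 251.1 TPM. In GILZ TG the same-numbered libraries deviated together over all genes, so the replicate number was also fitted as a block, although the labels do not say what it marks. With it, Ccnb1, Ccnb2 and Tpx2 were called lower in GILZ TG, at -0.33, -0.39 and -0.18 (edgeR adjusted p of 0.00849, 0.000164 and 0.00891), and so was Tyms, at -0.18 (adjusted p = 0.035). The block also called these genes lower in WT, at -0.54, -0.51, -0.25 and -0.25 in that order (edgeR adjusted p of at most 0.00681). In GILZ KO they were called at -0.68, -0.44, -0.47 and -0.18 (edgeR adjusted p of at most 0.0453). Over all genes, same-numbered libraries of WT did not all deviate together, and those of GILZ KO did not. For the 11 mitotic genes, GILZ KO replicates 1, 2 and 3 kept their order in both treatments. They summed to 1291, 1236 and 1186 TPM without treatment and to 480.1, 417.7 and 366.0 TPM after LPS. The replication genes kept no such order there. In WT the block's standard errors of Ccnb1 and Ccnb2 were 0.098 and 0.065, smaller than without it.

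Among the genes of the mitotic apparatus and chromosomes, Bub1b (ENSMUSG00000040084, chr2:118598211-118641591), a kinase of the spindle checkpoint, fell most. WT BMMs had 61.6, 76.5 and 65.3 TPM of Bub1b without treatment and 6.46, 10.8 and 16.9 TPM after LPS. GILZ KO BMMs had 90.4, 81.8 and 73.1 TPM and 13.7, 12.0 and 11.2 TPM, and GILZ TG BMMs 54.1, 69.1 and 68.4 TPM and 12.7, 15.9 and 11.4 TPM. The treatments did not overlap in any genotype. Bub1b changed by -1.92 ± 0.23 in WT, -2.05 ± 0.23 in GILZ KO and -1.71 ± 0.23 in GILZ TG on the log2 scale (edgeR adjusted p of at most 3.27e-06). Cenpf (ENSMUSG00000026605, chr1:189640606-189688086), a kinetochore protein, changed by -1.69 ± 0.28 in WT, -1.99 ± 0.29 in GILZ KO and -1.58 ± 0.28 in GILZ TG, and Cdc20, the activator of the anaphase-promoting complex, by -1.68 ± 0.32 in WT, -1.78 ± 0.33 in GILZ KO and -1.53 ± 0.32 in GILZ TG. Kif20a and Kif11, motor proteins of cytokinesis and of the spindle, changed by -1.5 ± 0.24 in WT, -1.65 ± 0.24 in GILZ KO and -1.41 ± 0.24 in GILZ TG and by -1.0 ± 0.22 in WT, -1.39 ± 0.22 in GILZ KO and -0.89 ± 0.22 in GILZ TG. Mki67 (ENSMUSG00000031004, chr7:135689784-135716361), which codes for the proliferation marker Ki-67, showed the following levels. Without treatment, Mki67 was at 99.6, 108.9 and 98.5 TPM in WT, 150.2, 138.8 and 137.3 TPM in GILZ KO and 87.1, 96.5 and 87.5 TPM in GILZ TG. With LPS it was at 30.1, 34.9 and 43.9 TPM, 46.0, 36.8 and 30.9 TPM and 30.6, 49.1 and 41.5 TPM in the same order. Untreated GILZ KO libraries were the highest of all, and the LPS libraries of the genotypes overlapped. The log2 fold change was -0.87 ± 0.15 in WT, -1.27 ± 0.15 in GILZ KO and -0.53 ± 0.15 in GILZ TG (edgeR adjusted p of at most 0.00403). Bub1, another kinase of the spindle checkpoint, was at -0.76 ± 0.17 in WT, -0.94 ± 0.17 in GILZ KO and -0.77 ± 0.17 in GILZ TG, Birc5 (survivin, of the chromosomal passenger complex) at -0.76 ± 0.22 in WT, -0.79 ± 0.23 in GILZ KO and -0.88 ± 0.23 in GILZ TG, and Top2a, the topoisomerase that untangles chromosomes, at -0.60 ± 0.16 in WT, -0.76 ± 0.16 in GILZ KO and -0.53 ± 0.16 in GILZ TG, each called in all 3 genotypes. Tpx2, a spindle assembly factor, was called in GILZ KO with TMM, at -0.47 ± 0.14 (adjusted p = 0.00673), and not in WT or GILZ TG, at -0.25 ± 0.14 and -0.18 ± 0.14 (adjusted p of 0.118 and 0.249).

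Cenpe (ENSMUSG00000045328, chr3:135212537-135273611), the kinesin that carries chromosomes along spindle fibres, was the exception in this group. In WT, Cenpe was at 27.3, 33.6 and 32.2 TPM without treatment and 28.9, 33.9 and 42.3 TPM after LPS. In GILZ KO the values were 45.4, 40.0 and 36.9 TPM and 37.2, 38.2 and 27.4 TPM, and in GILZ TG 23.6, 27.6 and 30.0 TPM and 25.5, 36.8 and 40.4 TPM. Untreated and LPS libraries overlapped in every genotype. With TMM it was called higher in WT, at 0.80 ± 0.17 (edgeR adjusted p = 0.000572), and in GILZ TG, at 0.97 ± 0.17 (adjusted p = 9.79e-05), and was at 0.38 ± 0.17 in GILZ KO (adjusted p = 0.0598). With library totals it was called in none, at 0.13, -0.26 and 0.29 in WT, GILZ KO and GILZ TG, with a change of sign in GILZ KO. The 11 mitotic genes summed to 792.0 to 1291 TPM without treatment and to 297.9 to 515.8 TPM after LPS.

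Most other genes of the same processes also fell. Of 32 further replication genes, 28 fell in WT, 28 in GILZ KO and 27 in GILZ TG with TMM, and 31 in each with library totals, against 35.1%, 35.4% and 35.1% of all genes with TMM and 68.3%, 67.2% and 68.3% with library totals. The medians with TMM were -0.97, -1.03 and -0.98. The largest falls were those of Ung, which removes uracil from DNA (mean TPM in WT 13.6 without treatment and 1.20 after LPS), Cdc7, the kinase that starts origins (13.7 and 1.61 TPM), and Uhrf1, which maintains DNA methylation (109.2 and 13.1 TPM). Mcm10, a replication factor, was called higher, with 1.03, 0.93 and 1.13 (edgeR adjusted p of at most 3.29e-05), and was at 0.36, 0.29 and 0.45 with library totals, where GILZ KO was not called. Of 40 further mitotic genes, 29, 31 and 30 fell with TMM, with medians of -0.77, -0.92 and -0.77, and 38 in each with library totals. The B-MYB gene Mybl2 changed by -2.02, -2.13 and -1.81, the spindle protein gene Aspm by -1.98, -2.32 and -1.63, and Espl1, the protease that separates sister chromatids, by -1.83, -2.08 and -1.87, all called. Pttg1, the inhibitor of that protease, rose in all 3, with 2.58, 2.37 and 1.63 (edgeR adjusted p of at most 5.05e-06), and with 1.90, 1.73 and 0.95 when scaled by library totals. Ckap2l, a spindle protein, was called higher with 0.79, 0.71 and 0.84 (adjusted p of at most 0.0208), and was not called with library totals, at 0.12, 0.07 and 0.16.

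Of 15 RB, E2F and DREAM components, which hold cell cycle genes silent or release them, 9, 10 and 9 fell in WT, GILZ KO and GILZ TG with TMM, against 35.1%, 35.4% and 35.1% of all genes. With library totals 13 fell in each, against 68.3%, 67.2% and 68.3%. E2f7, the partner of E2f8, changed by -2.66, -2.68 and -2.83, E2f6 by -1.91, -2.08 and -1.96, and Tfdp2, a dimer partner of E2Fs, by -1.37, -1.45 and -1.46, all called by edgeR. Rbl1, the p107 pocket protein, was called higher with 1.17, 0.86 and 1.16 (adjusted p of at most 1.01e-05), and was at 0.49, 0.22 and 0.48 with library totals, where GILZ KO was not called. E2f5 was called higher with 0.58, 0.60 and 0.69 under TMM (adjusted p of at most 4.79e-05), and turned to -0.10 in WT and -0.04 in GILZ KO with library totals. Of 5 other CDK inhibitor genes, none was called in any genotype by edgeR with TMM, and with library totals 4, 2 and 4 were called lower.

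The response to LPS was compared between genotypes in the fit of all 18 libraries. No member was called in any of the 3 comparisons by edgeR, where 0.0152% of all genes were called for GILZ KO against WT, 0.00759% for GILZ TG against WT and 0.121% for GILZ KO against GILZ TG. At an unadjusted p under 0.05 there were 3, 2 and 6 members of 44, against 6.36%, 3.09% and 9.92% of all genes. By DESeq2 1, 0 and 1 were called, against 0.159%, 0.0152% and 0.995% of all genes. Without GILZ TG replicates 1 and 2, edgeR called none in any of the 3. These comparisons share libraries with each other. Ccnd1 fell further in GILZ KO than in WT by -0.62 on the log2 scale (standard error 0.14, edgeR adjusted p = 0.382), and DESeq2 called it (-0.61, adjusted p = 0.0203). For Ccne2 the difference between these genotypes was -0.76 (standard error 0.19, adjusted p = 0.477). For Mki67, GILZ KO differed from GILZ TG by -0.74 (standard error 0.21, adjusted p = 0.174 by edgeR), with -0.74 and an adjusted p of 0.0386 by DESeq2. The difference of Myc between GILZ TG and WT was -0.45 (standard error 0.13, unadjusted p = 0.00302, adjusted p = 1.00). For Cdk6 the difference between GILZ KO and WT was -0.63 (standard error 0.26, adjusted p = 0.696). Calls in 1 genotype and not in another, as for Cdk6, Cenpe, Ccnb1 and Tpx2 with TMM, were thus not shown to differ by edgeR without a block. With the replicate number as a block, edgeR called Cenpe (-0.58, adjusted p = 0.0386) for GILZ KO against GILZ TG. The block also called Mki67 there (-0.73, edgeR adjusted p = 0.0405).

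In untreated BMMs, mitotic genes differed between GILZ KO and GILZ TG, though calls other than that of Mki67 depended on the fit. Between GILZ KO and GILZ TG, 5 of the 44 members were called, all higher in GILZ KO and all of the mitotic apparatus and chromosome group, where 4.94% of all 12621 genes were called in either direction and 2.77% higher in GILZ KO. These were Mki67, Cenpe, Cenpf, Bub1 and Top2a. All 11 genes of that group had a log2 fold change above 0, with a median of 0.40, and the median over all members was 0.10. Of all 12621 genes, 6191 were above 0. The 11 were also all above 0 for GILZ KO against WT (median 0.19). For GILZ TG against WT all were below 0 (median -0.21). They come from the same libraries and are not separate observations. In TPM, 8 of the 11 were higher in all 3 GILZ KO libraries than in all 3 of GILZ TG, against 18.6% of all genes. None of the 11 replication genes was called, with a median of -0.09, and none of the 7 G2/M genes, with a median of 0.21.

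Mki67 was at 150.2, 138.8 and 137.3 TPM in untreated GILZ KO, at 99.6, 108.9 and 98.6 TPM in WT and at 87.1, 96.5 and 87.5 TPM in GILZ TG. The 3 genotypes did not overlap, with GILZ KO highest and GILZ TG lowest. GILZ KO was higher than GILZ TG by 0.62 on the log2 scale (standard error 0.06, edgeR adjusted p = 0.0018) and higher than WT by 0.43 (standard error 0.06, adjusted p = 0.043). Mki67 was the 1 member called between GILZ KO and WT, where 0.0951% of all genes were called. Leaving out any of the 6 libraries of these 2 genotypes ended that call, and so did the fit of all 18 libraries. Between GILZ TG and WT it differed by -0.19 (standard error 0.06, adjusted p = 0.212). No member was called between GILZ TG and WT, where 0.642% of all genes were, and 3 had an unadjusted p under 0.05, against 14.1% of all genes. DESeq2 called none there, against 2.46% of all genes. Without GILZ TG replicates 1 and 2 none was called either, and without GILZ TG replicate 3 edgeR called Bub1, which was lower in GILZ TG.

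Cenpe was at 45.4, 40.0 and 36.9 TPM in GILZ KO and at 23.6, 27.6 and 30.0 TPM in GILZ TG, a log2 fold change of 0.56 (standard error 0.12, edgeR adjusted p = 0.0331). Bub1 was at 65.4, 68.8 and 63.4 TPM and at 39.6, 42.8 and 54.4 TPM, with 0.50 (standard error 0.12, adjusted p = 0.0413). The groups did not overlap for either gene, and GILZ TG replicate 3 was the closest to GILZ KO in both. Top2a was at 401.6, 390.2 and 382.6 TPM and at 269.0, 327.9 and 372.8 TPM, with 0.37 (standard error 0.09, adjusted p = 0.0462). Cenpf was at 27.5, 19.4 and 22.9 TPM and at 14.5, 16.7 and 22.2 TPM, with 0.65 (standard error 0.16, adjusted p = 0.0468). For Cenpf the groups overlapped in TPM, with GILZ KO replicate 2 below GILZ TG replicate 3. Without GILZ TG replicates 1 and 2, Mki67 was the 1 member called, at 0.65 (edgeR adjusted p = 0.0311), in a fit that takes the lone GILZ TG library to vary like the other groups. With library totals Top2a was not called and the other 4 were. Mki67 was the only one called without any of the GILZ KO libraries in turn, without GILZ TG replicate 1 or 2, and in the fit of all 18 libraries, while 10 members were called without GILZ TG replicate 3. Among the 10 were E2f1 and Mcm7, both lower in GILZ KO. The share of all genes called in that fit was not taken, so the larger count cannot be read as particular to the members. GILZ TG replicates 1 and 2, the libraries with the most stromal, neutrophil and B cell markers, were also the 2 lowest of their group for Cenpe, Cenpf, Bub1 and Top2a, and the part of these markers in the result was not tested.

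**Figure D4:**
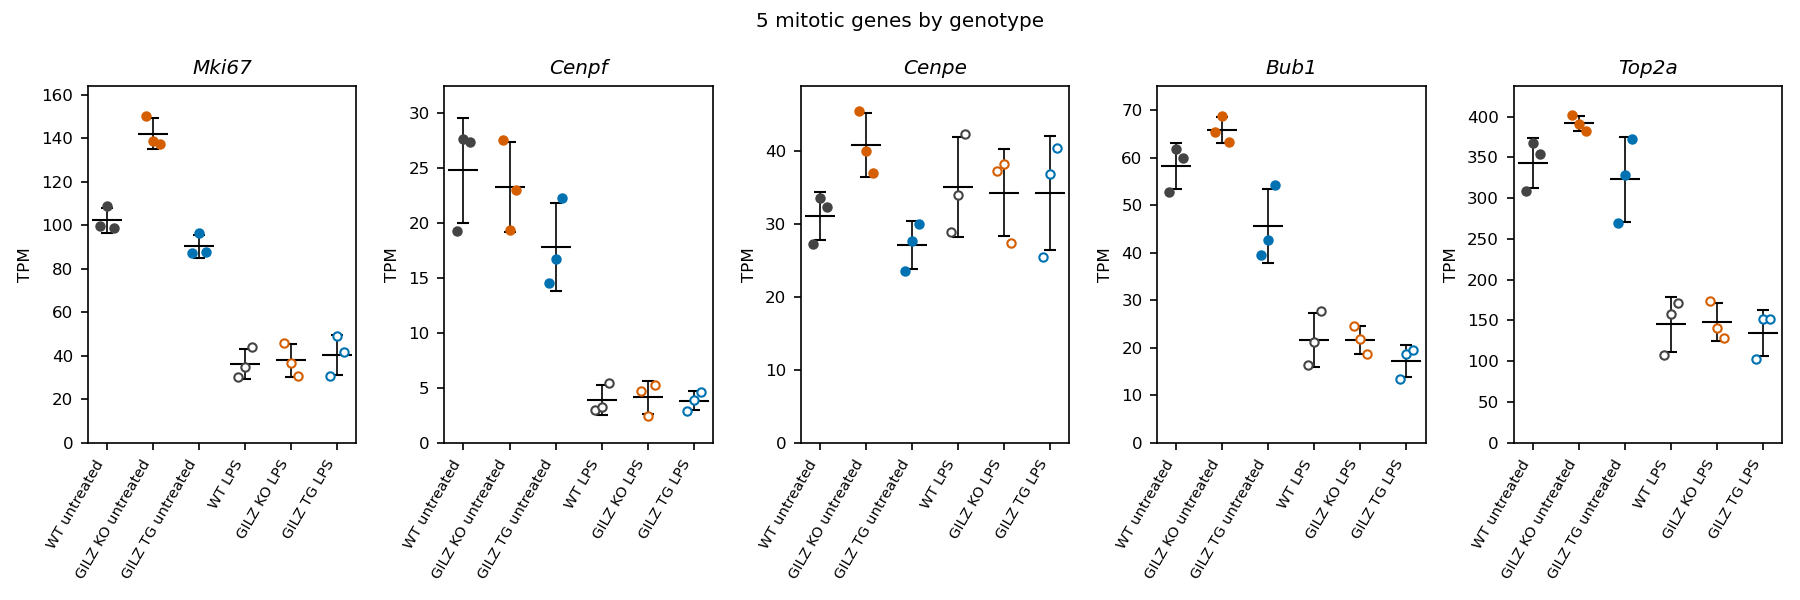
TPM (y axis, from 0) of the 5 members called between untreated GILZ KO and GILZ TG, in each library by genotype and treatment (x axis); filled points are untreated and open points LPS libraries, with mean ± SD of 3. Untreated GILZ KO libraries of Mki67 lie at 137.3 TPM or above and those of the other genotypes at 108.9 TPM or below, while after LPS the 3 genotypes overlap for all 5 genes.

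After LPS, no member was called between any 2 genotypes by edgeR, where 0.0822% of all 12164 genes were called for GILZ KO against WT, 0.46% for GILZ TG against WT and 2.6% for GILZ KO against GILZ TG. At an unadjusted p under 0.05 there were 4, 3 and 6 members of 44, against 9.63%, 15.2% and 19.1% of all genes. DESeq2 called 2, 0 and 0, against 0.822%, 2.25% and 5.88% of all genes. The 2 were Ccnd1 and Ccne2. Without GILZ TG replicate 3, 6 members were called between GILZ KO and GILZ TG (Ccnd1, Ccne1, E2f1, Mcm2, Mcm7 and Pcna, all lower in GILZ KO) and 2 between GILZ TG and WT (E2f1 and Mcm2). The share of all genes called without that replicate was not taken, so these counts cannot be read as particular to the members. Without GILZ TG replicates 1 and 2, Ccnd2 alone was called in both comparisons. Ccnd1 was at 83.6, 87.0 and 83.3 TPM in GILZ KO after LPS, at 152.6, 124.0 and 113.0 TPM in WT and at 116.5, 128.5 and 95.2 TPM in GILZ TG. All GILZ KO libraries were below all others, while WT and GILZ TG overlapped. The log2 fold change between GILZ KO and WT was -0.60 (standard error 0.12, edgeR adjusted p = 0.16) and by DESeq2 -0.61 (adjusted p = 0.00117). Ccne2 was at 4.06, 3.72 and 3.60 TPM in GILZ KO, at 6.43, 6.26 and 7.19 TPM in WT and at 5.43, 7.69 and 4.44 TPM in GILZ TG, in the same arrangement. It differed between GILZ KO and WT by -0.96 (standard error 0.17, edgeR adjusted p = 0.115), and by -0.97 with DESeq2 (adjusted p = 0.00192). Over its alternatives the adjusted p between GILZ KO and WT lay between 0.00117 and 0.619 for Ccnd1 and between 0.00192 and 0.394 for Ccne2. Both genes were called in the fit of all 18 libraries, with adjusted p of 0.0106 each. In TPM, 4 of the 44 members were lower in all 3 GILZ KO libraries than in all 3 of WT after LPS (Ccnd1, Ccne2, Mcm4 and Mcm6), against 6.66% of all genes. Mki67, which differed without treatment, was at 46.0, 36.8 and 30.9 TPM in GILZ KO, 30.1, 34.9 and 43.9 TPM in WT and 30.6, 49.1 and 41.5 TPM in GILZ TG after LPS, so that the genotypes overlapped.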

How the data were processed

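RNA from 18 BMM libraries was sequenced, 3 separate preparations in each of 6 groups. The authors ran grape-nf 1.1.3 under Nextflow 20.10.0 against GRCm38 (mm10) and deposited, for each library, expected counts and TPM per gene in the column layout of RSEM. Expected counts were rounded to whole numbers here, and TPM values were used as deposited. The deposited comparison tables hold the authors' own fold changes and p-values and were used only for pairing symbols with identifiers. edgeR 4.0.16's quasi-likelihood test with TMM scaling and Benjamini-Hochberg adjustment over all genes tested gave the changes, from all 18 libraries for the LPS response and from the 9 libraries of 1 treatment for genotypes. The scripts were tested on simulated data. An exact permutation test of 3 against 3 libraries cannot go below 0.1 and was not used. The members and lists were chosen with earlier results of these data known. All members are reported, and from each further list up to 3 genes with the largest falls and up to 3 with the largest rises among those called in all genotypes are named. Over all genes, same-numbered libraries of GILZ TG deviated together (correlations 0.266, 0.397 and 0.605). Those of WT did not all do so (0.264, -0.013 and 0.055) and those of GILZ KO did not (-0.033, 0.086 and 0.095). The labels do not say what a number marks.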

Additional observations from a re-analysis of the deposited data

How the results depend on the processing

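The alternatives changed few calls of the LPS response. Of the calls made between genotypes, all but that of Mki67 between untreated GILZ KO and GILZ TG were lost in at least 1 alternative. Most counts below stand without the share of all genes called in the same fit. Limma on log2(TPM + 1), limma on log2(TPM + 0.1) and library totals left 2 members higher in WT and in GILZ TG, and fits of only the 6 libraries compared gave 4 in GILZ KO. Leaving out 1 library gave 36 to 42 called members in WT, 36 to 37 in GILZ KO and 33 to 38 in GILZ TG. With the replicate block 42 were called in each. Between responses, DESeq2 called 1 member for GILZ KO against WT and 1 for GILZ KO against GILZ TG. In the latter the block called 2 (Mki67 and Cenpe), although same-numbered GILZ KO libraries did not deviate together over all genes. Without treatment, GILZ KO against WT gave 0 with the block, with all 18 libraries and without any 1 library, GILZ TG against WT gave 0 to 1 without 1 library, and GILZ KO against GILZ TG gave 10 with DESeq2, 3 and 3 with limma, 1 with all 18 libraries, 1 without GILZ TG replicates 1 and 2, and 1 to 10 without 1 library. After LPS, GILZ KO against WT gave 2 with DESeq2, 2 with no filter, 1 with 6 libraries and 2 with all 18. GILZ TG against WT gave 1 without GILZ TG replicates 1 and 2, and 0 to 2 without 1 library. GILZ KO against GILZ TG gave 3 with no filter, 2 with all 18, 1 without those replicates and 0 to 6 without 1 library.

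The sign turned for Cdk6 in GILZ KO (-0.35, -0.36 and -0.39 with limma on both pseudocounts and library totals), for Cenpe in GILZ KO (-0.25, -0.26 and -0.26) and for Pcna in GILZ TG (-0.61, -0.61 and -0.64, and -0.019, -0.029 and -0.032 without untreated replicate 3, LPS replicate 1, and replicates 1 and 2, with -0.029 to 0.10 over all fits without 1 library). It also turned for Ccne2 in the difference between GILZ TG and WT (0.023 with limma on log2(TPM + 1)) and for Cenpf between untreated GILZ KO and WT (-0.081 and -0.084 with limma). The cause was not tested. The fits without GILZ TG replicates 1 and 2 and without WT replicate 1 were chosen after seeing the data. Depth limits E2f2 after LPS.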

Other observations

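Of 12 p53 targets, 4 rose and 4 fell in WT, 6 rose and 3 fell in GILZ KO, and 4 rose and 5 fell in GILZ TG (edgeR, TMM, adjusted p under 0.05). Of all genes, 33.5%, 33.2% and 33.6% rose and 35.1%, 35.4% and 35.1% fell. The counts in WT and GILZ TG are near these shares. In GILZ KO more rose and fewer fell, among only 12 genes. With library totals 3 rose in each, and 8, 7 and 8 fell, where 15.9%, 15.5% and 15.5% of all genes rose and 68.3%, 67.2% and 68.3% fell. Btg2, an antiproliferative factor, rose with log2 fold changes of 2.55, 2.58 and 2.45 in WT, GILZ KO and GILZ TG, and Plk2, a stress-induced Polo-like kinase, with 1.60, 1.61 and 1.41. Mdm2, the ligase that degrades p53, rose with 1.25, 0.92 and 1.13. Phlda3 fell with -1.24, -0.98 and -1.15, and Zmat3 with -0.90, -0.88 and -0.99. These 5 kept their direction with library totals. Of 5 BTG and TOB genes, 3 rose in WT, 3 in GILZ KO and 2 in GILZ TG, and 1 fell in each, while with library totals 2, 2 and 1 rose and 2 fell in each. Tob1 was the one that fell with TMM, with -0.41, -0.59 and -0.44, and Btg1 rose with 1.09, 1.02 and 0.91.

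Of 9 tested genes of the network around Myc, 3 rose in each genotype, and 5, 5 and 4 fell with TMM, while 3 rose and 6 fell in each with library totals. Among all genes, 33.5%, 33.2% and 33.6% rose and 35.1%, 35.4% and 35.1% fell with TMM. With library totals, 15.9%, 15.5% and 15.5% of all genes rose and 68.3%, 67.2% and 68.3% fell. The network's rises with TMM and its falls with library totals are near these shares. The genes named are those with the largest changes. Mxd1, a MAX partner that opposes MYC, rose with 6.10, 5.77 and 6.19, Mycl with 4.79, 4.70 and 5.01, and Max with 1.78, 1.72 and 1.81. Mnt, another MAX partner, fell with -3.76, -3.72 and -4.12, Mxd3 with -3.52, -2.93 and -2.99, and Mxd4 with -1.78, -1.89 and -1.74. Of 18 ribosome biogenesis genes, 12, 11 and 12 fell with TMM and 17 in each with library totals, against the same shares of all genes. Gnl3 was at -2.02, -1.84 and -2.13, Polr1b at -1.66, -1.44 and -1.65, and Nop56 at -1.37, -1.21 and -1.38. Wdr43 rose with 1.19, 1.19 and 1.22. Npm1 was called higher with TMM, at 0.14, 0.18 and 0.14, and lower with library totals, at -0.54, -0.46 and -0.53.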
